A study of Mus musculus with 3 samples.

Results

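Gene expression in mouse liver was compared between an EEC+TMA array and a TMA array, with 1 array in each group and 3 arrays in the series. TMA is trimethylamine, a volatile amine with a fishy odour, and EEC is an extract that was made with ethanol from Ecklonia cava, a brown alga. The mice were of the outbred ICR stock, aged 8 weeks at the start and 10 weeks at sampling. The EEC+TMA liver came from mice that received the extract by mouth over 2 weeks and TMA for 24 hours. The TMA liver came from mice that received distilled water in place of the extract and the same exposure to TMA. The third array held liver of untreated mice, and its value is given last beside each gene. The sources used here do not state the doses, the route of TMA, the sex of the mice or any pooling of animals. The question is how liver RNA under TMA differs with and without the extract.

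The arrays were MoGene-2_0-st arrays, which read most coding and many non-coding mouse transcripts. Their 33793 main probe sets stood for 30921 gene symbols, with the probe set of highest mean level taken for a symbol that had several. Values are the authors' log2 levels. A gene counted as measured on an array where it reached the 95th percentile of 1541 probe sets for odorant, taste and pheromone receptors, which was 3.16 on the EEC+TMA array, 3.25 on the TMA array and 3.15 in untreated liver. By that level 15749 genes were measured on both arrays compared, 559 on the EEC+TMA array alone and 290 on the TMA array alone. With 1 array a side no spread between animals and no test could be had: each difference is that of 2 arrays, whose number limits the precision. In whole liver, more cells of a type and more RNA per cell cannot be told apart. Of the hepatocyte markers on the arrays, 19 of 19 were measured, and Alb, the gene of serum albumin, read 13.33 on the EEC+TMA array, 13.29 on the TMA array and 13.29 in untreated liver.

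The liver oxidises trimethylamine with flavin-containing monooxygenases and clears many other small molecules with cytochrome P450s, carboxylesterases and conjugating enzymes. Its gene programmes answer to fasting through the lipid-sensing receptor PPARalpha, to inflammation through cytokines that raise acute phase proteins, and to sex through the pulse pattern of growth hormone. The genes are described by these functions.

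Poly-A spike-ins are bacterial transcripts added to the RNA before labelling, so their signal should be alike on all arrays if equal amounts were added to equal amounts of RNA. Their 39 probe sets ranged between 1.21 and 7.72 on the EEC+TMA array, between 1.74 and 9.39 on the TMA array and between 1.21 and 8.07 in untreated liver. On the EEC+TMA array 37 of the 39 were lower than on the TMA array and 2 were identical, with a median log2 difference of -0.99. The difference was -0.66 in the median of the 17 probe sets with a mean level below 5 and -1.47 in the 7 at a level of 7 or above. Hybridisation spike-ins, which enter after labelling, also read lower on the EEC+TMA array, in 16 of 18 probe sets with a median of -0.46. Exon normalization controls lay on the other side, with a median difference of 0.39 and 930 of 1352 higher. The exon control median was 6.49 on the EEC+TMA array, 6.07 on the TMA array and 6.43 in untreated liver. The hybridisation median was 7.03, 7.49 and 7.01 on the same arrays. In both classes, as in the poly-A spike-ins, the untreated median lay nearer to the EEC+TMA array than to the TMA array. The part of these differences in the results below was not tested.

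**Figure D1:**
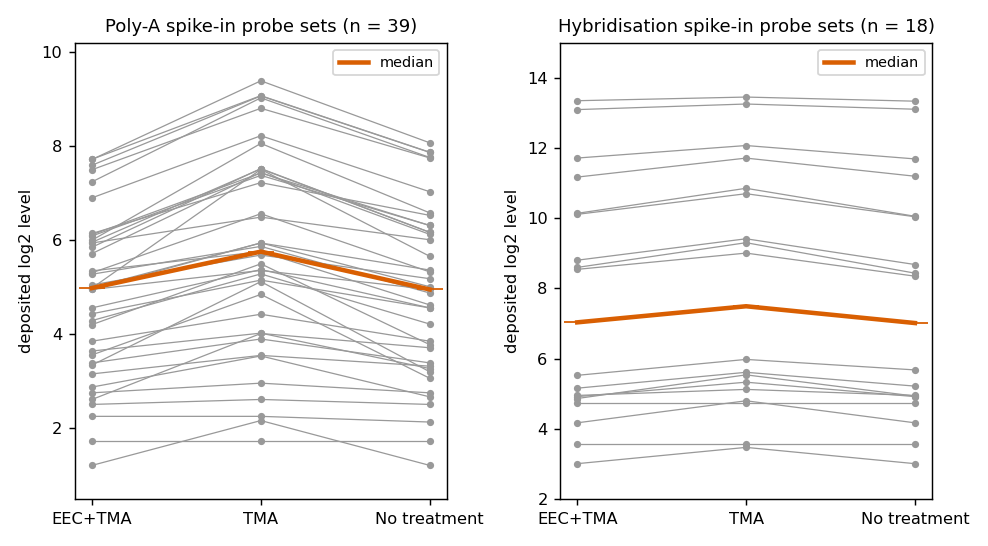
Deposited log2 level of each poly-A spike-in probe set (left, 39) and hybridisation spike-in probe set (right, 18) on the EEC+TMA, TMA and untreated arrays; each grey line is a probe set and the orange line joins the medians. The poly-A median was 4.98 on the EEC+TMA array, 5.76 on the TMA array and 4.95 in untreated liver.

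Among the 15749 genes measured on both arrays, 5739 (36.4%) were higher on the EEC+TMA array, 3029 (19.2%) were lower and 6981 (44.3%) had exactly the same value. The sources used here do not explain these equal values, so an identical value below does not show that a gene did not differ. Scaling gives such pairs a small difference, and counts of higher and lower genes after scaling include them. The middle 95% of log2 differences lay between -0.54 and 0.72, around a median of 0. The balance depended on the level of the gene. Of the 4355 genes with a mean level below 4, 9.46% were higher and 25.6% lower, whereas of the 264 genes between 9 and 10, 77.7% were higher and 18.6% lower. The median difference was 0 below a level of 6, and it was 0.11 between 6 and 7, 0.19 between 7 and 8, 0.23 between 8 and 9 and 0.25 between 9 and 10. Any group of well expressed liver genes therefore starts from a positive median, and most groups below are also given after quantile normalization and after a loess correction for level. The counts of list members past 1.5-fold or 2-fold below use the deposited values. The shares of all genes set beside them cover every level and are not matched to the level of the list.

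**Figure D2:**
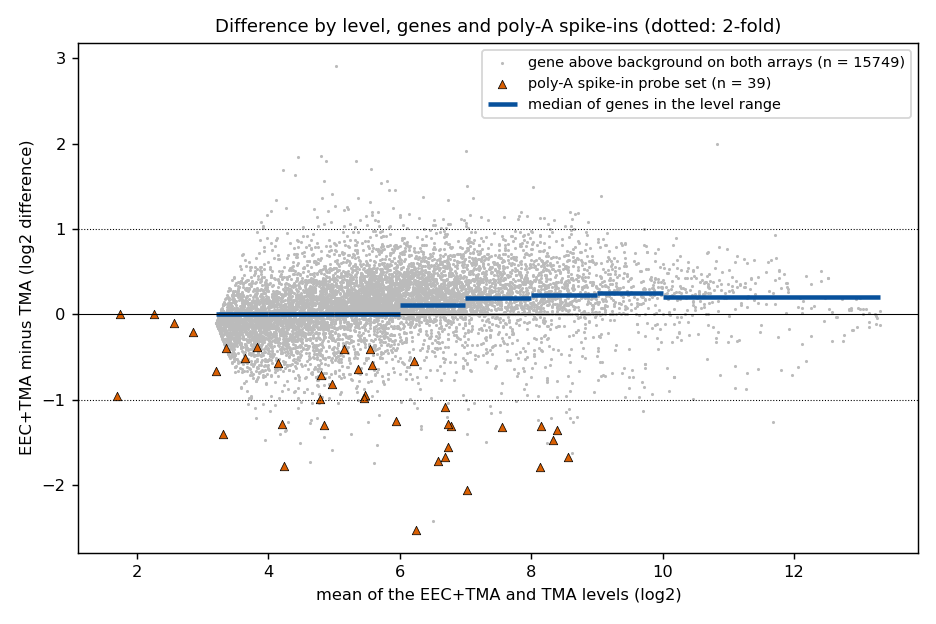
Log2 difference of EEC+TMA minus TMA against the mean log2 level of both arrays, for 15749 genes (grey points) and 39 poly-A spike-in probe sets (orange triangles); blue bars are the medians of genes in 8 ranges of level and dotted lines mark 2-fold. The blue medians stand at 0 up to a level of 6 and at 0.11 to 0.25 above it, while no triangle lies above 0.

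A size rule called a gene when the 2 arrays lay at least 2-fold apart, with values below the background level raised to it. It called 159 of the 16598 genes measured on at least 1 of both arrays (0.958%), with 99 (0.596%) higher and 60 (0.361%) lower. After quantile normalization it called 0.91% of genes, 0.361% higher and 0.548% lower, and after loess 0.93%, with 0.417% higher and 0.513% lower. The share of genes above 0 by any amount was 55% after quantile normalization and 52.9% after loess. At 1.5-fold it called 1109 genes (6.68%), with 755 higher (4.55%) and 354 lower (2.13%). Of the 99 higher genes 21 were small RNA genes and 78 were other genes. Of the 60 lower genes 36 were small RNA genes, 3 were antigen receptor segments and 21 were other genes. The share of these classes among all measured genes is not given here, so the counts alone do not show an excess of either class. Of the 1541 receptor probe sets, which liver should not express, 0 were 2-fold higher and 2 were 2-fold lower. The background level was taken from these same probe sets, so most lay below it by construction and could not be called. Their counts therefore cannot tell how often the rule calls a gene through noise.

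Fatty acid hydroxylases of the Cyp4 family had the highest median of the pathway and cell type lists with at least 5 measured members. These P450 enzymes add a hydroxyl group to the far end of fatty acids, and in mouse liver several Cyp4a genes are induced through PPARalpha. All 11 members were measured, and 11 of 11 were higher on the EEC+TMA array, with a median log2 difference of 0.74. The median was 0.54 after quantile normalization, with 9 of 11 higher, and 0.62 after loess, with 10 of 11 higher. Cyp4a10 read 8.78 on the EEC+TMA array, 7.28 on the TMA array and 8.08 in untreated liver, which made it 2.82-fold higher than on the TMA array. Cyp4a14 read 9.41, against 8.33 on the TMA array and 8.91 in untreated liver (2.12-fold higher than TMA). Both inducible genes thus also lay above the untreated array. Cyp4a32 read 5.22, against 3.59 on the TMA array and 5.02 in untreated liver (3.11-fold). The male-biased pair Cyp4a12a and Cyp4a12b, which make the signalling lipid 20-HETE from arachidonic acid in mice, was 1.87-fold and 2.22-fold higher. Cyp4a31 was close to equal, at 5.99 on the EEC+TMA array and 5.88 on the TMA array, and turned lower after quantile normalization, and outside the Cyp4a genes Cyp4f15 was 1.67-fold higher. In the files the Cyp4a genes lie side by side on chromosome 4, with Cyp4a14 at 115485721 to 115496142 on the minus strand, Cyp4a10 at 115518264 to 115533649 and Cyp4a32 at 115600938 to 115622366. The sources used here name no genome build for these coordinates. The probe sets of Cyp4a10 and Cyp4a12b also match other transcripts, so near-identical family members could share signal. With probe sets that match their own transcript alone, the list median was 0.49 over 9 members.

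Other PPARalpha targets and genes of fatty acid oxidation, which burn fatty acids in mitochondria and peroxisomes, differed less. Of 51 members measured on both arrays, 44 were higher, 4 lower and 3 identical, with a median of 0.28 that became 0.09 after quantile normalization and 0.07 after loess. At 1.5-fold, 9 were higher and 1 was lower, beside 4.55% and 2.13% of all genes. Pdk4, a kinase that blocks the use of glucose carbon by mitochondria, was 1.62-fold higher, at 6.52 on the EEC+TMA array, 5.83 on the TMA array and 6.36 in untreated liver. Angptl4, a secreted inhibitor of lipoprotein lipase, was 1.59-fold higher, and Plin2, which coats lipid droplets, 1.56-fold. Slc22a5, the carnitine transporter, was 1.80-fold higher, and Cpt2 of the carnitine shuttle 1.62-fold. After quantile normalization Slc22a5 was 1.76-fold, Pdk4 1.48-fold, Angptl4 1.45-fold, Cpt2 1.38-fold and Plin2 1.32-fold higher. The classical target gene Ehhadh (1.23-fold) differed by less, and Ppara itself read 7.79, 7.57 and 7.88 on the EEC+TMA, TMA and untreated arrays. The member on the other side was Abcd2, a peroxisomal importer of very long chain fatty acids, which was 3.31-fold lower, at 3.77 on the EEC+TMA array, 5.50 on the TMA array and 4.59 in untreated liver. Its relative Abcd3 was 1.14-fold higher (lower after both scalings) and Abcd4 was identical.

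Synthesis of cholesterol and fatty acids had no member past 2-fold, beside 0.596% higher and 0.361% lower of all genes, a share too small to expect a member in this list. At 1.5-fold 4 were higher and 1 lower, beside 4.55% and 2.13% of all genes. Of 37 members 26 were higher and 7 lower, the median was 0.15, and it was 0.01 after quantile normalization and -0.06 after loess. The acetyl-CoA carboxylases Acacb and Acaca, which commit carbon to fatty acids, were 1.72-fold and 1.59-fold higher, and Sqle of the cholesterol pathway 1.55-fold.

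The median of genes of fasting and gluconeogenesis was 0.29 over 38 members, 32 of them higher and 5 identical, and 0.12 and 0.13 after quantile normalization and loess. At 1.5-fold 10 were higher and 0 lower, beside 4.55% and 2.13% of all genes. Gadd45g, a stress-inducible gene that is also induced in liver by fasting, read 6.48 on the EEC+TMA array, 4.94 on the TMA array and 6.48 in untreated liver (2.91-fold). The TMA array was thus the low one. Gadd45a and Gadd45b had identical values on all 3 arrays, at 5.47 and 4.96, which does not show that they were unchanged. Eif4ebp3, whose protein holds back translation by binding the cap-binding factor eIF4E, was 2.94-fold higher, at 5.62 on the EEC+TMA array, 4.06 on the TMA array and 5.26 in untreated liver. Igfbp2 (1.85-fold) and Igfbp1 (1.51-fold), which encode secreted binding proteins for insulin-like growth factors, were higher, whereas Igfbp3, outside this list, was identical. Igfbp1 stayed far below the untreated array, at 5.62 against 5.03 on the TMA array and 7.55 in untreated liver. Pck1, the entry enzyme of gluconeogenesis, was 1.44-fold higher and G6pc, which releases free glucose, 1.34-fold. Among regulators, Trib1 was 1.76-fold, Lpin2 1.68-fold and Lpin1 1.58-fold higher.

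**Figure D3:**
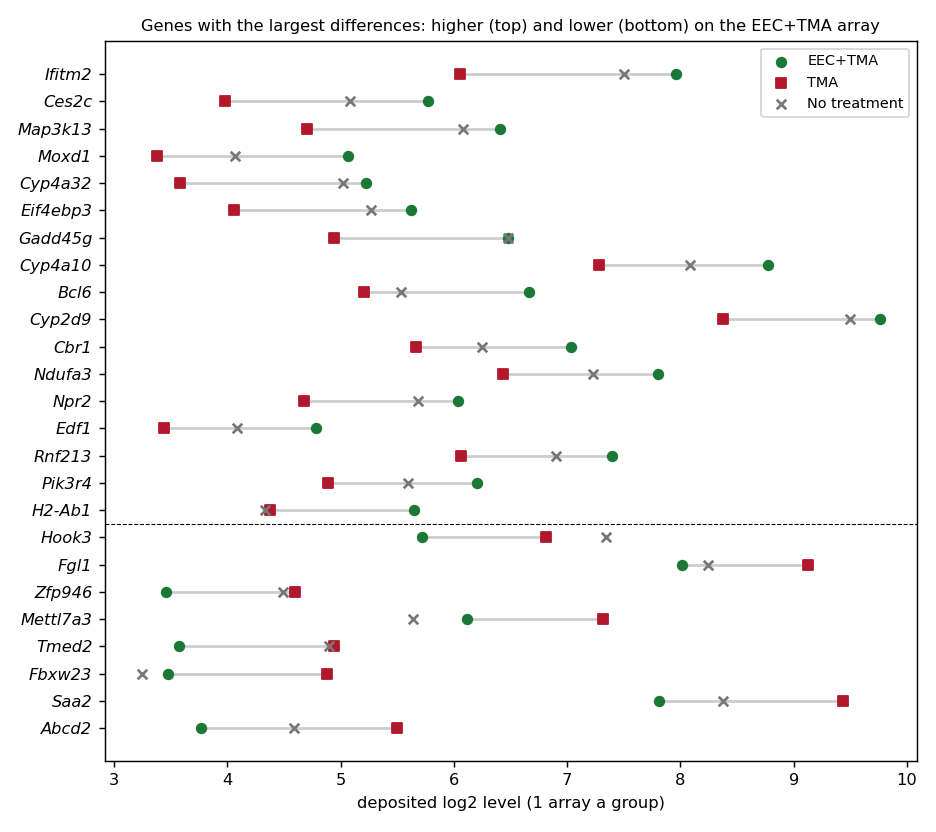
Deposited log2 levels of 25 genes among those with the largest differences, with circles for the EEC+TMA array, squares for the TMA array and crosses for the untreated array; 17 genes higher on the EEC+TMA array stand above the dashed line and 8 lower genes below it. For the higher genes the cross lies at or to the right of the square except for H2-Ab1, where the TMA level was 4.38 and the untreated level 4.33.

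Genes with male-biased expression in mouse liver, a set kept up by pulses of growth hormone, gave a median of 0.43 among 40 members. Of these 30 were higher, 6 lower and 4 identical, and the median was 0.24 after quantile normalization and 0.21 after loess. At 1.5-fold 15 of the 40 were higher and 2 lower, beside 4.55% and 2.13% of all genes. Moxd1, a monooxygenase gene, read 5.07 on the EEC+TMA array, 3.38 on the TMA array and 4.07 in untreated liver (3.23-fold). Cyp2d9, a testosterone hydroxylase, read 9.76 on the EEC+TMA array, 8.37 on the TMA array and 9.50 in untreated liver (2.62-fold). Ugt2b5 (1.95-fold), Selenbp2 (1.91-fold) and Slc22a30 (1.83-fold) were also higher. The pheromone carrier genes of the Mup family, which are among the most abundant liver transcripts, gave a median of only 0.06 over 20 Mup and Obp members, and -0.33 after loess, near the top of the range of levels. With probe sets that match their own transcript alone, 7 members remained, with a median of 0.01. The 20 readings could thus share signal between near-identical genes. Mup20 was 1.58-fold higher, Mup21 1.55-fold lower and Obp2a 1.72-fold lower. Of the 37 female-biased genes on the arrays 25 were measured, and 7 were higher, 12 identical and 6 lower, with a median of 0. Their median level was 4.49, against 8.81 in the male-biased list, so the medians of both lists are not matched for level. Of all genes between a level of 4 and 5, 55.3% were identical. Cyp2b9 was 2.03-fold lower, at 7.26 on the EEC+TMA array, 8.27 on the TMA array and 6.24 in untreated liver, whereas Cyp2a4 was 1.74-fold higher and Cyp2b13 identical. Abcd2 is in this list as well.

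Bcl6 encodes a transcriptional repressor that is male-biased in mouse liver and binds many of the sites that STAT5, the growth hormone effector, also binds. It read 6.66 on the EEC+TMA array, 5.20 on the TMA array and 5.53 in untreated liver, and so was 2.75-fold higher than on the TMA array and above both other arrays. The growth hormone axis, Bcl6 included, had a median of 0 over 18 measured members, 6 of them higher, 9 identical and 3 lower. Igf1, its main endocrine target, was 1.22-fold lower and Socs2 was identical, while Stat3 was 1.89-fold higher. A search for TTCNNNGAA, the core of sites bound by STAT proteins and BCL6, on both strands of the 250 bases before each start found it in 7.02% of 32851 RefSeq promoters (GRCm38.p6). It occurred before both Bcl6 starts in the table, once before the upstream start and in 3 copies before the downstream start, and once each in the promoters of Moxd1 and the interferon-induced gene Igtp, while Cyp2d9 and Gstm3 had none. The Bcl6 and Moxd1 promoters are shown because these genes led the male-biased list, with the matches in capitals. They lie at chr16:23981284-23981533 on the minus strand and chr10:24223267-24223516 on the plus strand. A match is only a run of letters and not evidence of binding.
Bcl6 (downstream start): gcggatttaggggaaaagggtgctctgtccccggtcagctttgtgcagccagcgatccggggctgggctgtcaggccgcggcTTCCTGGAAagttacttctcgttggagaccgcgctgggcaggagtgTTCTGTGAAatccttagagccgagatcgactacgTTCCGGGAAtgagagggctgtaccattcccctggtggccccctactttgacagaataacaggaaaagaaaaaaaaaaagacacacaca
Moxd1: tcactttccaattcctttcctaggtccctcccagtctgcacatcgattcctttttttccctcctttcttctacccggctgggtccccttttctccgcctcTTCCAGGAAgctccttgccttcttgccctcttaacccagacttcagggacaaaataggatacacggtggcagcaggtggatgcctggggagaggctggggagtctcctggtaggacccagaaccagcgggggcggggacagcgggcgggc

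Acute phase proteins, which hepatocytes secrete during inflammation, did not all differ in the same direction. Of 37 members 26 were higher, 8 lower and 3 identical, and the median of 0.16 became 0.04 after quantile normalization and -0.03 after loess. The lower members included the serum amyloid A genes that respond most to cytokines. Saa2 read 7.81 on the EEC+TMA array, 9.44 on the TMA array and 8.38 in untreated liver, 3.09-fold lower than on the TMA array. Saa1 read 8.19, against 8.91 on the TMA array and 8.42 in untreated liver (1.65-fold lower). Orm2, a gene of orosomucoid, read 5.51, against 6.53 on the TMA array and 5.33 in untreated liver (2.02-fold lower). Fgl1, a fibrinogen-like protein secreted by hepatocytes, read 8.02, against 9.12 on the TMA array and 8.25 in untreated liver (2.16-fold lower). In all 4 genes the TMA array was the high one, and the EEC+TMA array lay below the untreated array except for Orm2. Saa3, which macrophages also make, was 1.86-fold higher, Saa4, which is largely constitutive, 1.13-fold lower and Orm1 1.12-fold higher as deposited but lower after both scalings. Stat3 (1.89-fold) and Hamp (1.52-fold) were higher too, and after quantile normalization 1.64-fold and 1.29-fold. At 1.5-fold 3 members of the list were higher and 4 lower, beside 4.55% and 2.13% of all genes. Some members were nearer to equal, with Hp (haptoglobin) 1.01-fold, Crp 1.21-fold and Lbp 1.09-fold higher and Apcs 1.11-fold lower. Hp and Lbp turned lower after both scalings.

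The promoters of Saa1, Saa2 and Orm2 are shown because these genes were lower together. TTGCNNAA, a core of sites bound by C/EBP factors, which drive acute phase genes, was searched on both strands of the 250 bases before the start and found in 9.56% of all RefSeq promoters. It begins at position -182 in Saa1, -183 in Saa2 and -120 in Orm2, and the matches are in capitals. It also occurred in Saa3, Saa4 and Orm3, so it does not separate lower from higher members. The windows are chr7:46742981-46743230 on the minus strand, chr7:46751583-46751832 on the plus strand and chr4:63362199-63362448 on the plus strand of GRCm38.p6. Saa1 and Saa2 are divergent neighbours on chromosome 7.
Saa1: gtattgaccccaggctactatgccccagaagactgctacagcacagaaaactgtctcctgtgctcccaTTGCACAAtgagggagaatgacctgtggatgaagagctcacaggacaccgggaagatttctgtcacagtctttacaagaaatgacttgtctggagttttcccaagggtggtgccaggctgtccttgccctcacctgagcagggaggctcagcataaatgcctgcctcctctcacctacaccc
Saa2: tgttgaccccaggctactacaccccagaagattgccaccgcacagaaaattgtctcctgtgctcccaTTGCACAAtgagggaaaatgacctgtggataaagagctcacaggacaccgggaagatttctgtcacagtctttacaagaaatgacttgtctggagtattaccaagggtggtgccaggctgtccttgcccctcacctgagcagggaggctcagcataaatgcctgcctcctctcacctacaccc
Orm2: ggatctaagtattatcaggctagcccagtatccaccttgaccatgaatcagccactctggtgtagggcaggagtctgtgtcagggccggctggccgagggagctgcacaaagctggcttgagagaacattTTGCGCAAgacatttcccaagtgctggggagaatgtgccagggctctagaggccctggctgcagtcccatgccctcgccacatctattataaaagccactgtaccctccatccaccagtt

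**Figure D4:**
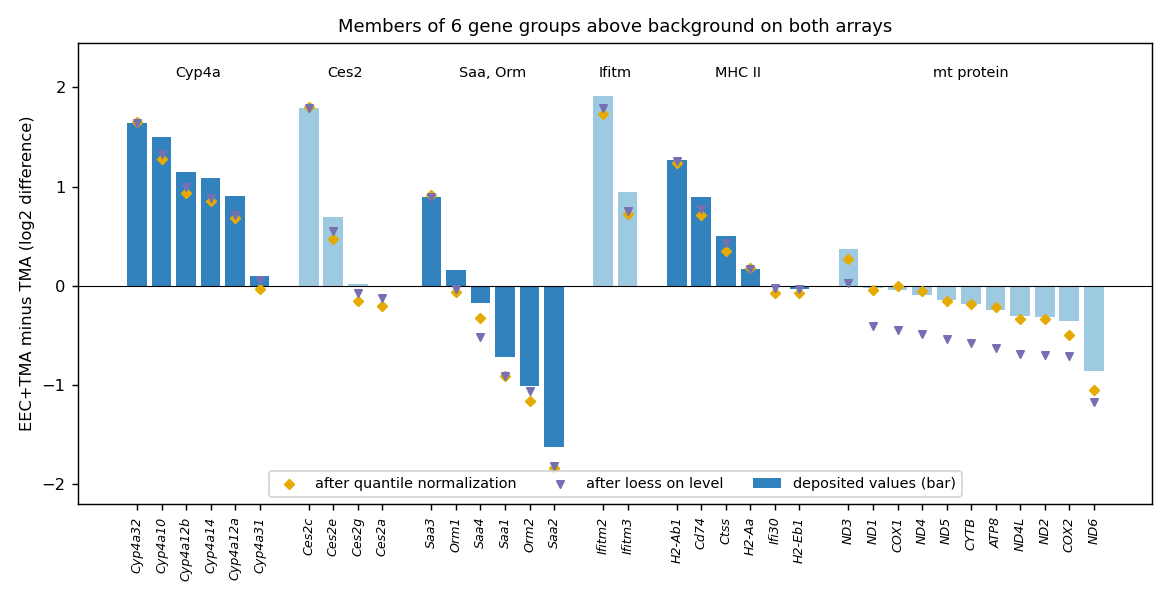
Log2 difference of EEC+TMA minus TMA for the members of 6 gene groups measured on both arrays, with bars for the deposited values, diamonds after quantile normalization and triangles after loess on level. The 2 bar shades only separate the groups; Cyp4a genes other than Cyp4a31, both Ifitm genes and H2-Ab1 stand above 0 in each scaling, Saa2, Orm2 and Saa1 below 0, and the mitochondrial protein-coding genes except ND3 below 0 as deposited and after loess.

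Of the flavin-containing monooxygenases, 4 are described here, none of them past 1.5-fold, beside 6.68% of all genes either way. Fmo1 was 1.43-fold higher, at 8.68 on the EEC+TMA array, 8.16 on the TMA array and 8.59 in untreated liver, and Fmo5 was 1.33-fold higher, at 10.03, 9.62 and 10.06 on the same arrays. Fmo4 was identical on all 3 arrays at 5.03, and Fmo2 was 1.14-fold lower. After loess Fmo1 was 1.26-fold and Fmo5 1.12-fold higher. Over the list of monooxygenase, choline and carnitine genes 14 of 22 measured members were higher, with a median of 0.14 that was 0.06 and 0.04 after quantile normalization and loess. Pemt, which makes phosphatidylcholine by methylation, was 1.55-fold higher, and Dmgdh, an enzyme of choline breakdown, 1.43-fold.

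In drug and ester metabolism a few genes stood out from lists that were near equal after scaling. Ces2c, a carboxylesterase gene on chromosome 8 (104847068 to 104854483), read 5.77 on the EEC+TMA array, 3.98 on the TMA array and 5.09 in untreated liver (3.47-fold higher). Its neighbours in the Ces2 cluster were uneven, with Ces2e 1.62-fold higher, Ces2g 1.01-fold higher (lower after both scalings) and Ces2a identical. Ces2b was above background on the EEC+TMA array alone, at least 1.84-fold higher. Of all 14 carboxylesterases measured on both arrays 9 were higher, and the median of 0.15 was -0.04 after loess. Among conjugating enzymes the glutathione transferases Gstm3 (2.20-fold), Gstt2 (2.04-fold) and Gstk1 (1.87-fold) were higher, and 27 of 37 members were higher and 2 lower, with a median of 0.17, and 0.03 and 0.01 after scaling. Targets of the antioxidant regulator NRF2 gave a median of 0.15 over 35 members, and 0.02 after both scalings. Within them Gstm3 was the member past 2-fold, Txnrd1 was 1.42-fold and Hmox1 1.22-fold higher, and Nqo1 was identical. Cbr1, a carbonyl reductase, was 2.59-fold higher by the probe set used, at 7.04 on the EEC+TMA array, 5.66 on the TMA array and 6.25 in untreated liver. With all its probe sets averaged the log2 difference of Cbr1 was 0.69. Drug-metabolising P450s of families 1 to 3 gave a median of 0.25 over 44 members, and 0.07 and 0.01 after scaling, with Cyp2d10 1.89-fold and Cyp1a2 1.70-fold higher and Cyp2j9 1.59-fold lower.

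Bile acid genes gave a median of 0.17 over 30 members, with 20 higher, and 0.02 and 0.00 after scaling. Abcb4, which flips phosphatidylcholine into bile, read 9.19 on the EEC+TMA array, 8.00 on the TMA array and 9.09 in untreated liver (2.29-fold higher). Abcc2, which exports conjugates, was 1.75-fold higher, and the bile salt pump Abcb11 1.45-fold. Cyp8b1 of bile acid synthesis was 1.52-fold higher, but Cyp7a1, its rate-limiting enzyme, read 8.66, 8.54 and 9.40 on the EEC+TMA, TMA and untreated arrays, and turned lower than TMA after both scalings. Abcb1a, a drug efflux pump, was above background on the EEC+TMA array alone, at least 1.55-fold higher.

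Plasma proteins of complement and coagulation, which hepatocytes secrete, were mostly higher by small amounts. Of 26 complement genes 22 were higher and 2 lower, with a median of 0.32, and 0.14 and 0.10 after quantile normalization and loess. C6, a part of the membrane attack complex, read 9.54 on the EEC+TMA array, 8.73 on the TMA array and 9.54 in untreated liver (1.75-fold). Of 29 coagulation and serpin genes 27 were higher and 2 lower, with a median of 0.34, and 0.15 and 0.13 after scaling. Serpina12, the gene of the secreted serpin vaspin, was 2.04-fold higher, at 5.66 on the EEC+TMA array, 4.63 on the TMA array and 6.09 in untreated liver, and F5, coagulation factor V, was 1.66-fold higher.

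Further hepatic functions lay near 0 once scaled. Of 30 genes of the urea cycle and amino acid breakdown 27 were higher and 0 lower, with a median of 0.21, and 0.04 and 0.01 after scaling; Asl, which releases arginine in the urea cycle, was 1.64-fold higher. Mitochondrial carriers had 20 of 32 members higher and 4 lower, with a median of 0.16, and 0.04 and 0.03 after scaling. Hepatocyte transcription factors had 19 of 30 higher and 4 lower, with a median of 0.17, and -0.03 and 0.03 after scaling; Prox1 and Foxa1 were 1.64-fold and 1.63-fold higher. Circadian clock genes had 4 higher, 4 lower and 12 identical and a median of 0, and -0.07 and -0.01 after scaling. With the identical members given a sign by scaling, 7 were higher and 13 lower after quantile normalization and 5 and 15 after loess. Of 34 genes of the integrated stress response 13 were higher, 4 lower and 17 identical, with a median of 0, and -0.00045 and -0.00066 after scaling. In the same way 17 were higher and 17 lower after quantile normalization and 15 and 19 after loess. At 2-fold 3 of the 34 were higher and 0 lower, beside 0.596% and 0.361% of all genes; these were Gadd45g and Eif4ebp3, described above, and Map3k13. Map3k13, a kinase upstream of the stress kinase JNK, read 6.41 on the EEC+TMA array, 4.71 on the TMA array and 6.08 in untreated liver (3.25-fold). Splicing factors had 21 of 41 higher, 7 lower and 13 identical, with a median of 0.01, and -0.07 and -0.01 after scaling. With the identical members given a sign, 14 were higher and 27 lower after quantile normalization and 17 and 24 after loess. Srrm2 was 1.81-fold and U2af2 1.88-fold higher.

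Interferon-related and antigen-presenting genes included several with the EEC+TMA array as the high one of the 3. H2-Ab1, a chain of MHC class II, read 5.64 on the EEC+TMA array, 4.38 on the TMA array and 4.33 in untreated liver (2.41-fold). Cd74, the invariant chain that guides class II molecules, read 7.50, against 6.61 on the TMA array and 6.29 in untreated liver (1.85-fold). H2-Aa, the partner chain of H2-Ab1, was 1.12-fold higher and H2-Eb1 1.02-fold lower, so the class II genes were uneven. Their median was 0.33 over 6 members, and 0.26 and 0.30 after scaling, but it was 0 over the 10 and 13 members taken in with a lower or no background level. Igtp, a GTPase induced by interferon-gamma, read 7.22 on the EEC+TMA array and 6.10 on both other arrays (2.16-fold). Irf9, a transcription factor of the type I interferon response, read 5.99, 5.17 and 5.17 on the EEC+TMA, TMA and untreated arrays (1.76-fold), and the chemokine gene Cxcl9 6.07, 5.31 and 5.05 (1.69-fold). Apol9a was 2.07-fold higher, and Ifit3 was above background on the EEC+TMA array alone, at least 1.85-fold higher, though its probe set is shared with further transcripts. Against these stood many members at equal values, with Irgm1, Oas3 and Oasl1 identical, Isg15 1.03-fold higher and Iigp1 1.11-fold lower. Over the lists, 8 of 18 genes induced by interferon-gamma and 16 of 27 of the type I response were higher, with medians of 0 and 0.08. A further 7 and 10 were identical, and scaling gave these a sign. The interferon-gamma median was 0.03 after quantile normalization and 0.00 after loess, with 13 higher in each. The type I median was 0.04 and 0.06, with 19 and 21 higher. MHC class I genes had a median of 0.23 over 20 members, and 0.09 and 0.13 after scaling, with H2-K1 1.78-fold higher and Psme2 1.67-fold lower.

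Ifitm2 and Ifitm3, which encode membrane proteins that block virus entry, were the 2 Ifitm genes of 7 above background on both arrays. Ifitm2 read 7.96 on the EEC+TMA array, 6.05 on the TMA array and 7.50 in untreated liver (3.76-fold), and Ifitm3 read 9.07, 8.13 and 8.45 on the same arrays (1.92-fold). After loess they were 3.47-fold and 1.68-fold higher. Both lie on chromosome 7, Ifitm2 at 140954837 to 140955983 and Ifitm3 at 141009586 to 141010770.

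Nuclear genes of the respiratory chain gave a median of 0.27 over 62 members, with 52 higher and 2 lower, and 0.08 and 0.14 after quantile normalization and loess. At 1.5-fold 13 were higher and 0 lower, beside 4.55% and 2.13% of all genes. Ndufa3, a subunit of complex I, read 7.80 on the EEC+TMA array, 6.43 on the TMA array and 7.23 in untreated liver (2.58-fold), Ndufb9 of the same complex was 2.17-fold higher and Cox6b1 of cytochrome c oxidase 2.15-fold. The subunits that the mitochondrial genome itself encodes lay on the other side, with 10 of 11 lower and a median of -0.18, the same after quantile normalization and -0.57 after loess. ND6, the subunit encoded on the other strand, was 1.82-fold lower, at 10.68 on the EEC+TMA array, 11.54 on the TMA array and 11.20 in untreated liver. The mitochondrial transfer RNA genes were split. Of 18 measured 13 were higher and 5 lower, with a median of 0.65, and 0.50 and 0.51 after quantile normalization and loess. At 2-fold 6 were higher and 0 lower, beside 0.596% and 0.361% of all genes, among them mt-Ts2 (2.74-fold), mt-Tt (2.66-fold) and mt-Ta (2.30-fold), while mt-Ts1 was 1.83-fold and mt-Tg 1.63-fold lower. The mitochondrial and small RNA groups were chosen after their values were seen.

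Chaperones and the proteasome were mostly higher by modest amounts as deposited, and less so after scaling. Of 34 heat shock and endoplasmic reticulum chaperone genes, 24 were higher and 5 lower, and at 1.5-fold 9 were higher and 0 lower, beside 4.55% and 2.13% of all genes. Dnajb11 (1.77-fold), Pdia6 (1.74-fold) and Pdia4 (1.65-fold) act in protein folding in the endoplasmic reticulum, and Fkbp11, a folding enzyme of that compartment outside the list, was 2.32-fold higher. Hsp90ab1 with its co-chaperones Stip1 and Ahsa1 was 1.58-fold, 1.60-fold and 1.55-fold higher, whereas Hspa5, the main chaperone of the compartment, was 1.14-fold higher (lower after quantile normalization) and the stress gene Ddit3 identical. The list median of 0.26 was 0.11 and 0.07 after scaling, with 19 higher and 15 lower in each. Of 30 proteasome genes 27 were higher and 2 identical, with a median of 0.28, and 0.07 and 0.14 after scaling. After quantile normalization 18 were higher and 12 lower, and after loess 23 and 7. Psma1 was 1.80-fold and Psmb5 1.68-fold higher. Of 73 mitochondrial ribosomal protein genes 36 were higher, 2 lower and 35 identical, with a median of 0, and -0.02 and 0.00 after scaling. With the identical members given a sign by scaling, 31 were higher and 42 lower after quantile normalization and 37 and 36 after loess. Of 65 cytosolic ones 34 were higher and 19 lower, with a median of 0.02, and 33 and 32 after quantile normalization and 32 and 31 after loess. Both ribosomal lists were chosen after their values were seen.

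**Figure D5:**
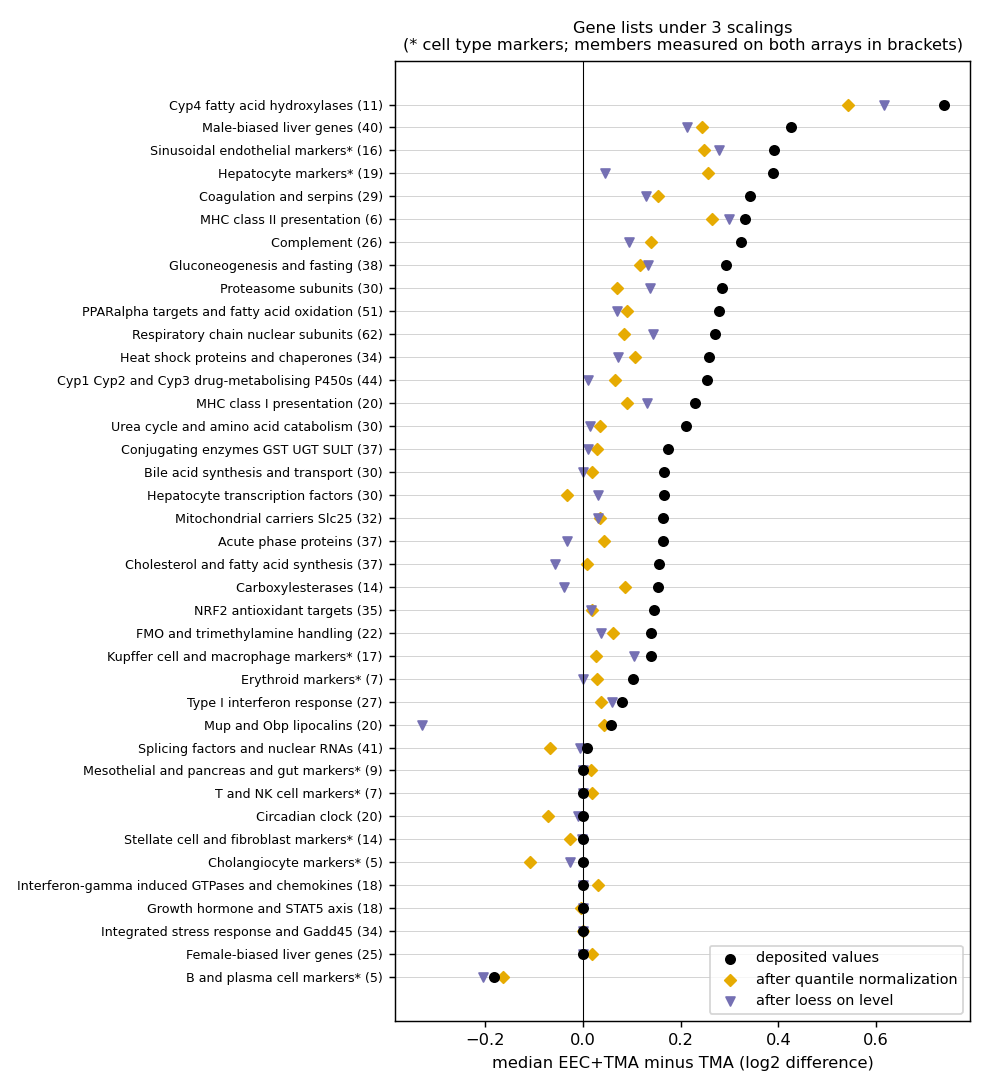
Median log2 difference of EEC+TMA minus TMA for each pathway and cell type list with at least 5 members measured on both arrays, as deposited (black circles), after quantile normalization (yellow diamonds) and after loess on level (purple triangles). Cyp4 hydroxylases stand apart at 0.74, 0.54 and 0.62, and of all 41 lists 16 have a median of at least 0.2 as deposited, 6 after quantile normalization and 5 after loess.

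Some genes more than 2-fold higher belonged to no list. Npr2, the receptor of C-type natriuretic peptide, was 2.56-fold, the transcriptional coactivator gene Edf1 2.53-fold, the ubiquitin ligase gene Rnf213 2.52-fold and Pik3r4, a regulatory subunit of the lipid kinase of autophagy, 2.48-fold higher. Lyrm2 was 2.36-fold and Bloc1s2 2.31-fold higher, where the probe set of Bloc1s2 is shared with further transcripts. In each of these the untreated array lay nearer to the EEC+TMA array than to the TMA array, except for Edf1 at 4.78, 3.44 and 4.08 on the EEC+TMA, TMA and untreated arrays.

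On the lower side, protein-coding genes of varied roles were found. Tmed2, a cargo receptor of the early secretory pathway, read 3.57 on the EEC+TMA array, 4.94 on the TMA array and 4.90 in untreated liver (2.58-fold lower). Hook3, an adaptor of the motor dynein, read 5.72, against 6.81 on the TMA array and 7.34 in untreated liver (2.13-fold lower). Eea1, a tether of early endosomes, read 5.50, against 6.53 on the TMA array and 6.97 in untreated liver (2.04-fold lower). For Hook3 and Eea1 the EEC+TMA array was thus the low one and the untreated array the high one. The same order held for Thoc2 of the messenger RNA export complex (2.01-fold lower), the adaptor gene Cd2ap (2.01-fold), the protein kinase gene Rock1 (1.99-fold), the scaffold gene Erbb2ip (1.90-fold), Arhgap5 (1.83-fold) and the clock gene Clock (1.61-fold). Mettl7a3 (2.31-fold lower) and Fbxw23 (2.64-fold lower) instead had their high value on the TMA array alone, at 7.32 and 4.88. Of genes above background on the TMA array alone, Smok4a was at least 1.87-fold and Tet2 at least 1.81-fold lower, and of those on the EEC+TMA array alone the pheromone pseudogene Mup-ps16 was at least 2.86-fold higher.

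Small nucleolar RNAs, which guide the modification of ribosomal RNA, were more often lower than higher. At 2-fold 7 C/D box and 2 H/ACA box genes were lower and 0 of either higher, beside 0.361% lower and 0.596% higher over all genes. Of 64 C/D box genes measured on both arrays 44 were lower and 14 higher, with a median of -0.26, and -0.44 and -0.54 after quantile normalization and loess. Of the 31 H/ACA box genes 17 were lower and 7 higher, with a median of -0.05, and -0.22 and -0.19 after scaling, and of 9 Cajal body RNAs 7 were lower. Snord70 read 6.56 on the EEC+TMA array, 8.06 on the TMA array and 7.61 in untreated liver (2.82-fold lower), and Snord57 was 2.85-fold lower. Snord93 read 4.88, against 6.41 on the TMA array and 4.48 in untreated liver (2.90-fold lower), and Snora16a read 11.04, 12.31 and 10.66 on the EEC+TMA, TMA and untreated arrays (2.41-fold lower). The U3 gene Rnu3a was 2.54-fold lower. Of 26 histone genes 15 were lower and 4 higher, with a median of -0.07, whereas 232 Zfp zinc finger genes had 52 higher, 49 lower and 131 identical. The probe set of Snord93 is shared with further transcripts. These short RNAs lay on the same side as the spike-ins, whose median difference was -0.99, and the part of total RNA quality or labelling in this was not tested.

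Of the cell type marker lists, those of hepatocytes and sinusoidal endothelium had the highest medians as deposited. Several of the other lists had few measured members. Hepatocyte markers had a median of 0.39, with 18 of 19 higher, and 0.26 after quantile normalization and 0.05 after loess, and their summed linear level was 73690 on the EEC+TMA array, 60230 on the TMA array and 71590 in untreated liver. Sinusoidal endothelial markers kept more of their difference, with a median of 0.39, and 0.25 and 0.28 after scaling. Of 16 members 12 were higher and 4 identical, and 6 were past 1.5-fold, beside 4.55% of all genes higher by that much, and the summed linear level was 3436 on the EEC+TMA array, 2410 on the TMA array and 3340 in untreated liver. Kdr, a receptor of vascular endothelial growth factor, read 8.24, 7.26 and 8.19 on the EEC+TMA, TMA and untreated arrays (1.96-fold higher than TMA). The scavenger receptor gene Stab2 was 1.89-fold, Dnase1l3 1.88-fold, Cdh5 1.77-fold, Eng 1.63-fold and Tek 1.63-fold higher, while Pecam1, Lyve1 and Gpr182 were identical. The median of 17 Kupffer cell markers was 0.14, and 11 were higher and 0 past 1.5-fold, beside 6.68% of all genes either way. Stellate cell markers had a median of 0 over 14, cholangiocyte markers 0 over 5 and T and NK cell markers 0 over 7. For B and plasma cells 5 of 11 markers on the arrays were measured, with a median of -0.18 and a summed linear level of 359.9 on the EEC+TMA array, 377.4 on the TMA array and 327.9 in untreated liver, and Ms4a1 and Pax5 were below background on both arrays, as were the neutrophil genes S100a8, S100a9 and Ly6g. The T cell genes Cd3d and Cd3g were below background too. Of 41 immunoglobulin segments 6 were higher and 17 lower, with a median of 0, and 20 and 20 after quantile normalization and 18 and 18 after loess. Of 51 T cell receptor segments 3 were higher and 27 lower, with a median of -0.02. After quantile normalization 18 of these were higher and 30 lower, and after loess 15 and 34. The median levels of both groups were 3.79 and 3.90, and of all genes below a level of 4, 9.46% were higher and 25.6% lower. Erythroid markers had 4 of 7 higher and 0 lower, and markers of mesothelium, pancreas and gut 1 of 9 higher and 2 lower. The part of these cell types in the class II and interferon genes was not tested.

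The authors' deposited table of this pair listed 68 probe sets, of which the EEC+TMA array was higher in 35 and lower in 33, with the smallest fold at 2.51. These were all main probe sets that lay at least 2.5-fold apart in the log2 values, with no p-value behind the choice, and 5 of them were below background on both arrays. The authors' deposited table of KEGG maps held 60 maps. Arachidonic acid metabolism and vascular smooth muscle contraction held 3 listed genes each, all higher on the EEC+TMA array. The PPAR signaling pathway held 2, also higher, as did other maps such as MAPK signaling and retinol metabolism. These counts were not set against the size of the maps.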

How the data were processed

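The authors deposited log2 values per probe set in 2 tables that differ by at most 5e-05. The sources used here do not state how they were summarised and normalized. The authors also deposited a signed fold score per listed probe set, with numbers of listed genes per KEGG map. Gene names and coordinates came from the deposited tables, and 25454 of 25901 Entrez identifiers were found in RefSeq (GRCm38.p6). Background levels, differences, counts, list medians and 2 rescalings (quantile, and loess with a span of 0.3) were computed with pandas 2.3.3, numpy 2.4.6 and statsmodels 0.14.6, after tests on simulated data. A gene below background on 1 array is given as at least N-fold against that array's background level. List medians cover members measured on both arrays. Genes were named by rule (the 25 largest differences each way, list members past 1.5-fold, small families), with some left out for length. The members and lists, 41 with 1157 entries and 11 more chosen after their values were seen, were chosen with earlier results of these data known. Scaling, background level, fold, probe set choice and list summary were varied.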

Additional observations from a re-analysis of the deposited data

How the results depend on the processing

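The count of genes at least 2-fold higher (99) was 60 after quantile normalization, 755 at 1.5-fold and 10 at 3-fold. The count of genes at least 2-fold lower (60) was 91 after quantile normalization, 115 with no background level, 35 with probe sets that match their own transcript alone, 354 at 1.5-fold, 5 at 3-fold and 21 with small RNA genes and segments of antigen receptors left out. The sum of both (159) was 240 with no background level, 1109 at 1.5-fold, 15 at 3-fold and 99 without those genes. Loess on level turned the list medians of cholesterol and fatty acid synthesis (-0.0567), carboxylesterases (-0.0392), acute phase proteins (-0.0324) and bile acid genes (-8e-05) below 0, moved Mup and Obp lipocalins to -0.33 and hepatocyte markers to 0.0457, and quantile normalization turned hepatocyte transcription factors to -0.0334. The class II median was 0 with the 90th percentile as background and with none, and the Ifitm median of 1.43 was 0.47 and 0 there. Of 54 named genes at least 2-fold apart, 44 stayed so after quantile normalization and 48 after loess, and all 54 kept their direction in both. No paired analysis was possible because each group had 1 array. Signal near background limits the genes below a level of 4, and no spread between animals could be measured.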
